A study of Drosophila melanogaster with 3 samples.

Results

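The lysosomal alpha-mannosidase genes of Drosophila melanogaster form a family of 6, LManI to LManVI, and were compared between homozygous kep1-/kep1- males and wild-type w1118 males. Probes were found by the CG numbers of the family in the 3 array tables. This gave 1 cDNA probe each for 4 of the 6 genes, LManVI (CG9468, clone RE08556), LManV (CG9466, clone GH02475), LManIII (CG9463, clone RE28991) and LManII (CG6206, clone GH02419). All 4 passed the filter on dim probes, as did 11733 of the 11744 probes, which covered 9162 genes. No probe was found under the CG numbers of LManI (CG5322) and LManIV (CG9465), which are not analysed here. The family was selected on the mutant over wild-type ratios of LManVI and LManV, already known to be low on these arrays. The mutant over wild-type ratios of the members are therefore a description, and no test is given for them.

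Each of 3 spotted 2-colour cDNA arrays held mutant RNA in channel 2 with Cy5 and wild-type RNA in channel 1 with Cy3, so every gene had 3 log2 ratios. By the design text the RNA came from male heads at 3 to 4 days of age, with 3 samples prepared independently, whereas the source labels mention males but no body part. No label says how many flies were pooled or whether the strains share a genetic background. The kep1 allele, beyond being homozygous, is not described in the labels used here. No array had its dyes swapped, so the genotype and a probe's own dye bias cannot be told apart. Kep1 (qkr58E-3 in the gene table) belongs to the STAR proteins, which bind RNA, and its own probe had log2 ratios of -1.59, -1.35 and -2.13.

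Lysosomal alpha-mannosidases remove mannose from the glycan chains of glycoproteins that are broken down in the lysosome, the acidic compartment in which cells digest macromolecules. Loss of the human lysosomal enzyme causes alpha-mannosidosis, a storage disease in which uncut mannose-rich chains accumulate. They are distinct from the Golgi and endoplasmic reticulum mannosidases, which trim glycans on newly made proteins. In the RefSeq gene order LManIII, LManIV, LManV and LManVI are direct neighbours on chromosome arm 2L, and LManI and LManII form a second pair of neighbours on the same arm.

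The measured members fell into a low pair and a pair near 0, of which LManIII was mostly within the range of blank spots. LManVI averaged a log2 ratio of -1.56 ± 0.11 and LManV -1.15 ± 0.19 (SD, n = 3 arrays), or 2.95-fold and 2.23-fold lower in the mutant. The fold of LManV includes array 3, where its mutant signal did not exceed the 95th percentile of blank spots. Without background correction or normalization its mean intensities were 2.73-fold apart (2.94-fold for LManVI). LManIII averaged -0.06 ± 0.11 and LManII 0.03 ± 0.27. The median of the 4 was -0.61, against -0.01 over all genes tested. Of the 4 members 2 had a mean of 1 or more below 0, as did 0.95% of the 9162 genes. The same 2 were below 0 on all 3 arrays, as were 21.5% of genes. Both shares are background for a contrast through which the family was chosen.

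LManVI had foreground intensities of 655.9, 613.0 and 679.7 in mutant RNA on arrays 1, 2 and 3, against 1585.3, 2029.4 and 2122.4 in wild-type RNA. The groups did not overlap, and the highest mutant value was well under the lowest wild-type value. After normalization its log2 ratios were -1.57, -1.44 and -1.67. Each probe was spotted as a neighbouring pair, and the uncorrected log2 ratios of the 2 LManVI spots differed by at most 0.107 on any array. All its spots exceeded the local background by 2 background SDs in both channels, as did those of every LMan probe. On every array both channels of LManVI were brighter than 95% of blank spots. Its brightness exceeded that of 73.4% to 80.4% of probes in the mutant channel and 90.9% to 95.1% in the wild-type channel. Brightness also depends on the DNA in a spot, so it is no measure of one paralog's transcript level against another's.

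LManV had foreground intensities of 341.1, 187.8 and 249.9 in the mutant, against 676.8, 745.6 and 707.4 in wild type. Here too the groups did not overlap. Non-overlap with the mutant lower was seen for 2 of the 4 members and for 5.04% of all genes, before any normalization. The normalized log2 ratios were -0.997, -1.37 and -1.10, so array 2 had the strongest reduction of LManV. After normalization LManVI was least reduced on array 2, but its uncorrected ratios of -1.27, -1.73 and -1.64 were lowest there. Blank spots, which hold no DNA, had mutant-channel medians of 136.9, 65.2 and 114.2, below LManV on every array. The LManV mutant signal exceeded that of 40.6% to 58.6% of probes. In the mutant channel 95% of blank spots lay below 313.6, 128.2 and 311.6, and the LManV value exceeded that level on arrays 1 and 2 but not on array 3. The wild-type values were all above the matching levels of 344.9, 112.4 and 446.0. The 2 LManV spots differed most on array 2, with uncorrected log2 ratios of -1.69 and -2.29. Over the alternatives the mean LManV ratio ran from -1.05 without array 2 to -1.44 with plain background subtraction.

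LManIII, the first gene of the same run of neighbours, was dim in both genotypes. Its foreground intensities were 158.9, 126.2 and 108.0 in the mutant, against 156.9, 164.3 and 200.1 in wild type, and the groups overlapped. The mutant value was under this blank level on all 3 arrays, and the wild-type value was under it on arrays 1 and 3. The log2 ratios of 0.05, -0.08 and -0.17 therefore compare signals that are mostly within the range of blank spots, and a lower level in the mutant was not detectable with this probe.

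LManII, whose product has been studied as an acidic alpha-mannosidase, exceeded the 95th percentile of blank spots in both genotypes on every array. Its foreground intensities were 532.0, 374.0 and 403.9 in the mutant, against 366.9, 492.7 and 464.6 in wild type, and the groups overlapped. In wild type the margin was small on arrays 1 and 3, where that percentile was 344.9 and 446.0. The log2 ratios were 0.34, -0.13 and -0.12, so array 1 went one way and arrays 2 and 3 the other. Without array 1 the mean was -0.13.

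**Figure D1:**
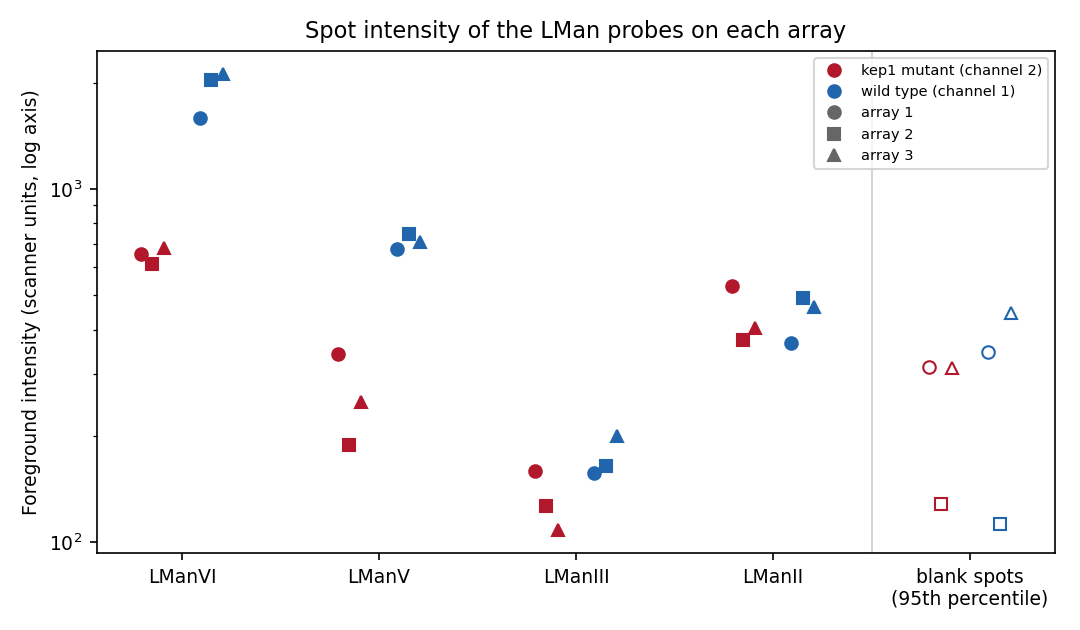
Foreground intensity in scanner units (log axis) of the 4 LMan probes, each point the mean of 2 spots on 1 array, with mutant (red, left) and wild type (blue, right); open symbols give the 95th percentile of the blank spots. LManVI and LManV show no overlap of the genotypes, with LManVI at 613.0 to 679.7 in the mutant and 1585.3 to 2122.4 in wild type, while LManIII lies under the blank level except in wild type on array 2.

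**Figure D2:**
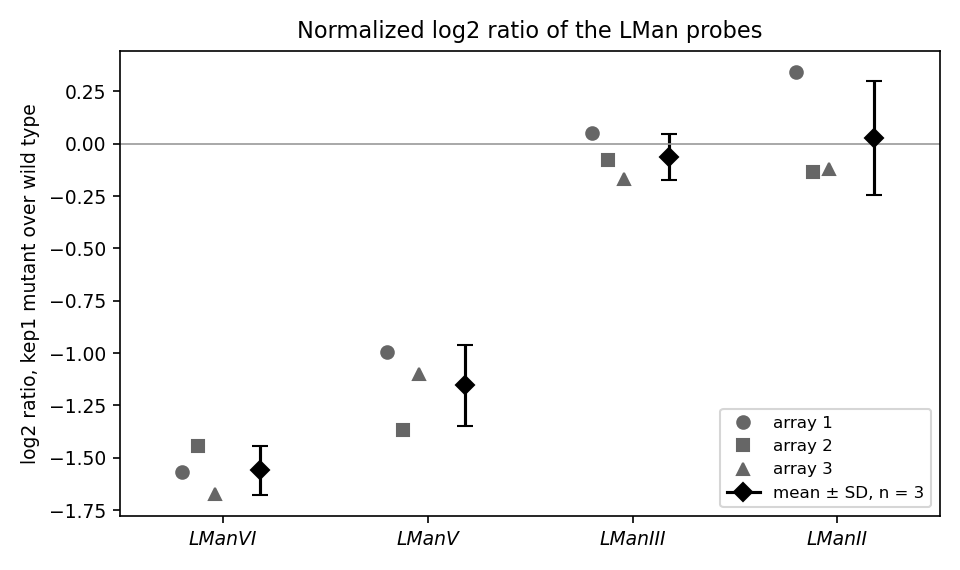
Normalized log2 ratio of mutant over wild type of the 4 LMan probes on each array (grey) and the mean ± SD over 3 arrays (black). LManVI (-1.56) and LManV (-1.15) lie below 0 on every array, and LManIII and LManII scatter around 0. The LManIII signal was mostly within the range of blank spots.

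Set against each other within arrays, LManVI had the lower ratio than LManV on all 3 arrays, by -0.57, -0.08 and -0.57, a mean difference of log2 ratios of -0.41 ± 0.29 (SD, n = 3). On array 2 they were almost equal, and the uncorrected ratios there ran the other way, at -1.73 for LManVI and -1.99 for LManV. The order on array 2 thus depended on the processing. LManV had its dimmest mutant signal there, 187.8, above the 128.2 that 95% of blank spots lay under. In the means LManVI was below LManV under all 11 alternatives run for the members, but their distance depended on the background correction. With the deposited log2 values the means were -1.44 for LManVI and -1.39 for LManV. The ratio of LManVI differed from that of LManII by -1.91, -1.31 and -1.55, and that of LManV by a mean of -1.18 ± 0.19 (SD, n = 3). In wild type the LManII signal was only slightly above the 95th percentile of blank spots on arrays 1 and 3. No difference from LManIII is given, since its probe was mostly within the range of blank spots.

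LManV and LManVI were printed in the same print-tip block. The other 229 tested probes of that block had median log2 ratios of -0.05, -0.02 and 0.04 on the 3 arrays, and the lowest of their means was -1.22. With each block normalized on its own, LManVI stood at -1.51 and LManV at -1.16. Both genes' probes are cDNA clones, and whether transcripts of one family member also bound the other's probe was not tested.

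**Figure D3:**
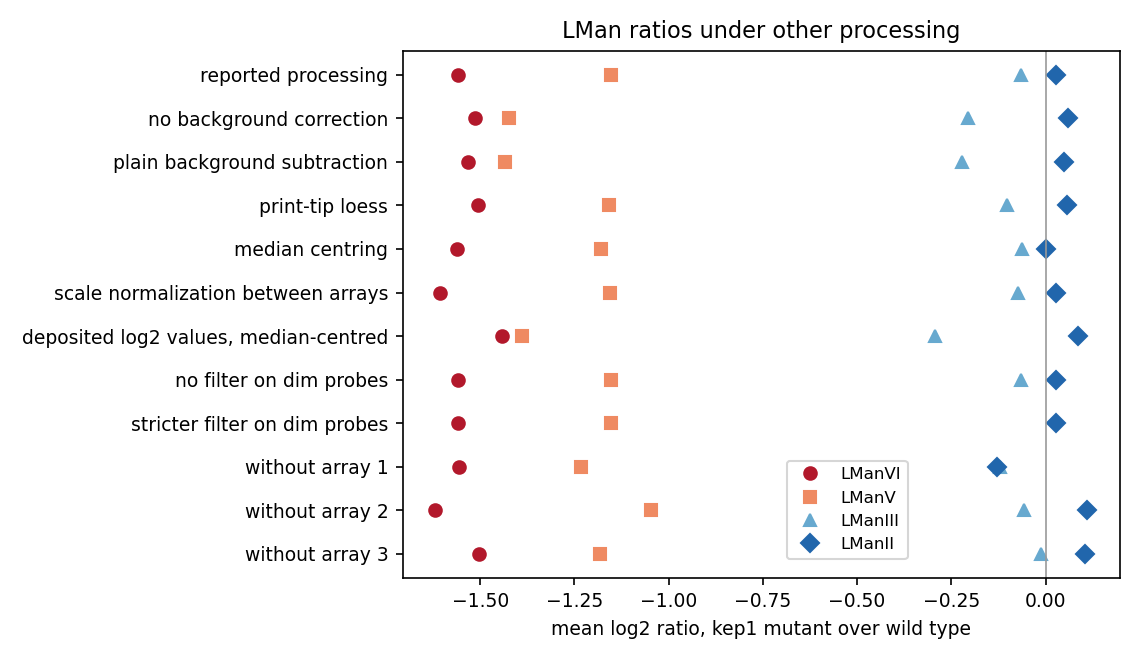
Mean log2 ratio (x axis, mutant over wild type) of each LMan gene under the reported processing and each alternative (rows). LManVI stays between -1.62 and -1.44 and LManV between -1.44 and -1.05, while LManII crosses 0 without array 1; LManIII has no value under the stricter filter.

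The genes next to the family on 2L were compared to see how far the reduction extended along the chromosome. For each run of neighbours the 5 nearest genes with a tested probe on each side were taken, 20 genes in all. None passed an adjusted p of 0.05 in limma, where 0.131% of all genes did. With no adjustment for multiple tests, 2 of the 20 were higher and 2 lower at p under 0.05, limits that 5.69% and 9.98% of all genes passed in those directions. The median over the 10 neighbours of LManIII to LManVI was -0.02, and that over the 10 neighbours of LManI and LManII was 0.10.

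Directly beyond LManVI the nearest gene with a probe was SoxN, a transcription factor gene of the nervous system, at -0.0087 ± 0.34. On the other side, raw, a regulator of JNK signalling in the embryo, stood at -0.11 ± 0.24. The next tested gene, CatB (CG9314), 4 annotated genes from LManIII, had log2 ratios of -0.98, -0.37 and -0.95, a mean of -0.77 ± 0.34 (limma adjusted p = 0.125). CatB passed under 5 of 12 alternatives, the deposited log2 values among them (-0.82, limma adjusted p = 0.0378). Past it, the nuclear receptor gene Hnf4 stood at 0.16 ± 0.33, Trs23 at 0.05 ± 0.11 and PrBP at 0.06 ± 0.12. On the SoxN side followed CG32983 (-0.10 ± 0.07), CG9483 (-0.16 ± 0.06), CG34398 (0.14 ± 0.07) and Tsp29Fa (-0.02 ± 0.16). Apart from LManV and LManVI, no tested gene of this stretch thus had a mean below that of CatB.

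Around LManI and LManII, CG6144 had the largest ratio, 0.39 ± 0.16 (limma adjusted p = 0.142), followed by Grip75, a component of the microtubule-nucleating gamma-tubulin complex, at 0.27 ± 0.34. The pseudouridine synthase genes RluA-1 and RluA-2, which follow LManII, stood at 0.16 ± 0.21 and 0.22 ± 0.16. Cog4 (-0.01 ± 0.41), loh (-0.0011 ± 0.06), STUB1 (0.07 ± 0.11), holn1 (0.13 ± 0.23), TBC1D16 (-0.11 ± 0.16) and TfIIB (0.02 ± 0.17) completed the set.

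**Figure D4:**
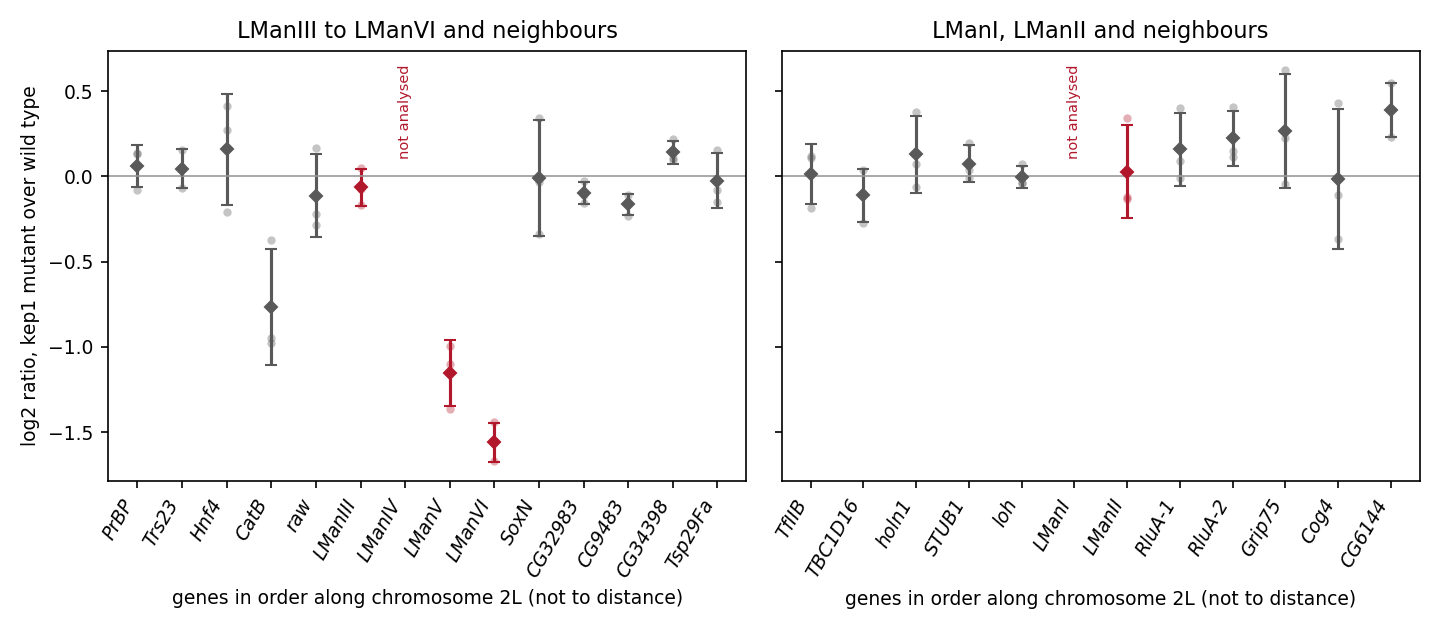
Log2 ratio of mutant over wild type of the LMan genes (red) and their nearest tested neighbours (grey), in gene order along 2L and not to distance; diamonds and bars are the mean ± SD over 3 arrays and pale points the arrays. LManV and LManVI lie at -1.15 and -1.56 beside neighbours between -0.77 (CatB) and 0.16; LManI and LManIV are not analysed here.

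The other glycosidases that work beside alpha-mannosidase in the lysosome were compared next. Of 18 such genes 16 had a tested probe, and no gene of the list passed in limma, where 0.131% of all genes did. Unadjusted, 1 was higher and 2 were lower at p under 0.05, beside 5.69% and 9.98% of all genes. The median log2 ratio of the 16 was -0.03. The beta-mannosidase gene beta-Man, which acts on the mannose left after the alpha-linked residues are gone, stood at -0.07 ± 0.06. The lowest ratios with 1 sign on all arrays were those of Ect3, a predicted beta-galactosidase, and CG15117, a predicted beta-glucuronidase. Ect3 had ratios of -0.49, -1.45 and -0.82, a mean of -0.92 ± 0.49 (limma adjusted p = 0.150). CG15117 had -0.44, -0.49 and -0.33, a mean of -0.42 ± 0.08 (limma adjusted p = 0.0960). Both passed in limma without background correction, and Ect3 also with plain background subtraction and with an intensity trend and robust variances.

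Hexo1 (0.09 ± 0.17) and Hexo2 (0.06 ± 0.09), which encode hexosaminidases, did not pass, and neither did the glucocerebrosidase genes Gba1a (0.0057 ± 0.22) and Gba1b (0.03 ± 0.10) or Idua (-0.0064 ± 0.18), Naglu (-0.06 ± 0.23) and Sgsh (-0.07 ± 0.07) of glycosaminoglycan breakdown.

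Among 14 other genes for lysosomal enzymes and their cofactors 11 were tested, and none passed in limma, where 0.131% of all genes did. The median of the 11 was -0.02. Unadjusted, 1 was higher and 1 lower at p under 0.05, beside 5.69% and 9.98% of all genes. Npc2a, which encodes a sterol-binding lysosomal protein, had ratios of 0.47, 0.45 and 0.41, a mean of 0.44 ± 0.03 (limma adjusted p = 0.0903). The cathepsin B gene CtsB had -0.34, -0.48 and -0.37, a mean of -0.40 ± 0.07 (limma adjusted p = 0.0960). CtsL1, a cathepsin L gene, stood at 0.11 ± 0.15.

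Genes for lysosomal membrane proteins and for transport to the lysosome had a median of -0.07 over 12 tested of 14. None was past the threshold in limma, where 0.131% of all genes were. Unadjusted, 2 were higher and 1 lower at p under 0.05, beside 5.69% and 9.98% of all genes. The efflux permease gene spinster (spin) stood at -0.33 ± 0.06 (limma adjusted p = 0.108) on its brightest probe and at 0.25 ± 0.29 on its other probe. Rab7, a GTPase of late endosomes, stood at 0.29 ± 0.06 (limma adjusted p = 0.123). The membrane glycoprotein gene Lamp1 had -0.11 ± 0.11.

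Mannosidases and other enzymes of N-glycan processing in the endoplasmic reticulum and Golgi had a median of 0.0018 over 14 tested of 14. None passed in limma, where 0.131% of all genes did. Unadjusted, 2 were higher and 0 lower at p under 0.05, beside 5.69% and 9.98% of all genes. The Golgi mannosidase genes alpha-Man-IIa and alpha-Man-IIb stood at -0.25 ± 0.25 (limma adjusted p = 0.393) and 0.03 ± 0.02. The alpha-Man-I genes, which act earlier on the same glycans, stood at -0.11 ± 0.14 for alpha-Man-Ia and 0.24 ± 0.10 for alpha-Man-Ib. GCS2alpha, the catalytic subunit of the glucosidase that trims new glycans, stood at 0.53 ± 0.28 (limma adjusted p = 0.159).

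Markers of other tissues were measured on the same arrays. All 8 tested of 12 gut markers were below 0 on all 3 arrays, as were 21.5% of all genes. Unadjusted, 8 were lower and 0 higher at p under 0.05, beside 9.98% and 5.69% of all genes. Of the 8, 2 passed the adjusted threshold in limma, as did 0.131% of all genes, the starch-digesting amylases Amy-d (-2.02 ± 0.15) and Amy-p (-1.90 ± 0.27), whose copies are near-identical. Summed over the 8, the foreground intensity was 7028 to 12212 in the mutant, against 16190 to 31326 in wild type, and no marker was at 0. By array, the list's median was -1.49, -0.93 and -1.57, beside -1.57, -1.44 and -1.67 for LManVI. LManV had -0.997, -1.37 and -1.10, lowest on array 2, where the list's median was nearest to 0. The part of gut tissue in the LManV and LManVI ratios was not tested. In such bulk RNA, fewer cells of a type and less RNA per cell cannot be told apart.

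Testis and accessory gland markers had a median of -0.54 over 7 tested of 8, with 4 below 0 on all arrays (21.5% of all genes were) and none past the threshold in limma. Unadjusted, 4 were lower and 0 higher, beside 9.98% and 5.69% of all genes. The accessory gland genes Acp36DE and Mst57Da had the lowest means, -1.43 ± 0.90 (limma adjusted p = 0.183) and -1.39 ± 0.82 (limma adjusted p = 0.170), and both were lowest on array 3. Their summed intensity was 4046 to 9823 in the mutant, against 6936 to 17268 in wild type, with janB at 0 in at least 1 channel. Malpighian tubule markers had a median of -0.15 over 6, of which 3 were below 0 on all arrays, again beside 21.5% of all genes, and none passed in limma. Unadjusted, 3 were lower and 0 higher, where 9.98% and 5.69% of all genes were. The lowest were salt at -0.71 ± 0.48 (limma adjusted p = 0.212) and Smvt at -0.42 ± 0.20 (limma adjusted p = 0.153). Their summed intensity was 2476 to 4311 in the mutant and 3164 to 5099 in wild type. Fat body markers had a median of 0.48 over 5 and none passed in limma. Unadjusted, 2 were higher and 0 lower, beside 5.69% and 9.98% of all genes. Lsp2, a storage protein gene, had ratios of 3.83, 2.13 and 2.18, a mean of 2.72 ± 0.97 (limma adjusted p = 0.0960) that was the highest of the 9162 genes. The gene fit had 0.31, 2.93 and 1.17, a mean of 1.47 ± 1.33 (limma adjusted p = 0.304). The yolk protein gene Yp1 had -2.54, 2.96 and -0.78, a mean of -0.12 ± 2.81. The brightest probes of apolpp and Fbp1 stood at 0.48 ± 0.52 and 0.38 ± 0.43. The other probe of apolpp stood at 0.68 ± 0.24 and that of Fbp1 at -0.02 ± 0.05. The sum over the 5 fat body markers was 8948 to 17754 in the mutant and 5884 to 10359 in wild type. The part of these tissues in the LMan ratios was not tested either.

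For head tissue 8 head and eye markers were taken, among them the main opsin gene ninaE and the neuronal gene elav. All 8 were measured, none was at 0, and none passed in limma, where 0.131% of all genes did. At an unadjusted p under 0.05, 0 were higher and 0 lower, beside 5.69% and 9.98% of all genes. The median of the 8 was 0.06, and their summed intensity was 30597 to 37832 in the mutant and 28614 to 45233 in wild type. These markers cannot tell head RNA from whole-fly RNA, since whole flies include the head. Gut, testis and accessory gland lie outside the head, and the summed signal of their markers is given above.

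**Figure D5:**
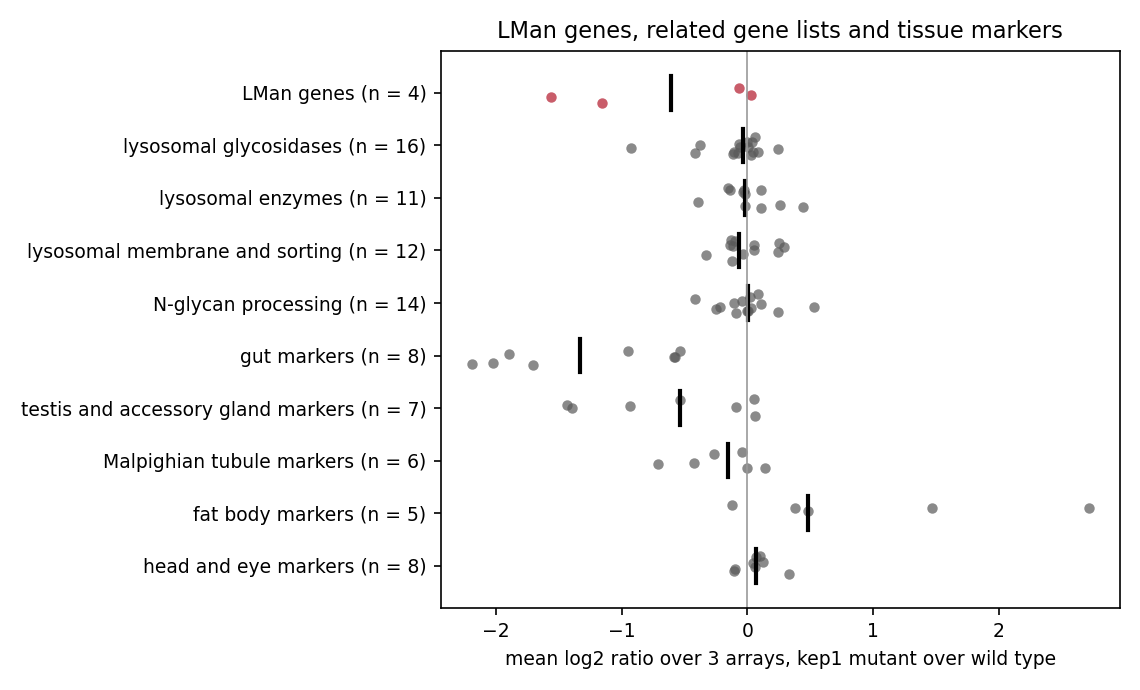
Mean over 3 arrays of the log2 ratio (mutant over wild type) for each gene (points) of the LMan family, related lysosomal and glycan lists and tissue markers, with the list median as a black bar. The LMan genes split into a pair at -1.56 and -1.15 and a pair near 0. LManIII, of the pair near 0, was mostly within the range of blank spots. The lysosomal and glycan lists have medians from -0.07 to 0.0018, and the gut markers have a median of -1.33.

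The genes whose 3 ratios lay nearest to those of LManVI were named by Euclidean distance over the 3 arrays, as a description. The nearest was loopin-1, a leucyl aminopeptidase gene of sperm, at a distance of 0.246, with ratios of -1.50, -1.55 and -1.88. Alp4, an alkaline phosphatase gene, followed at 0.302 with -1.68, -1.19 and -1.78. Then came exuperantia (exu), which acts in RNA localization and spermatogenesis, at 0.320, CG31286 at 0.387 and salto at 0.468. Nearest to LManV were Sf3b2, a splicing factor gene (distance 0.264, with -0.77, -1.46 and -1.20), the chitin deacetylase gene Cda5 (0.266, with -1.24, -1.25 and -1.12) and Strn-Mlck, a muscle kinase gene (0.325, with -0.71, -1.39 and -1.25). The LMan genes themselves were left out of this search.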

How the data were processed

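Per the labels, mutant and wild-type RNA were hybridised together on 3 arrays of the Canadian Drosophila Microarray Center, after extraction with Trizol and a column. Per the file headers, the deposited scanner tables hold intensities of the spot and of its local background, with the background SD, for each channel, on a linear scale with no normalization. Which image software was used is not stated in the labels or headers. The deposited log2 table matched log2 of channel 2 over channel 1 foreground at 27648, 24779 and 27616 spots (largest difference 5.3e-05), with medians of -0.08, -0.20 and -0.04, so it is neither background-corrected nor centred. Its direction follows from the labels' channel numbers.

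In limma 3.58.1 (R 4.3.3), normexp (offset 50) corrected the background and loess normalized each array, giving weight 0 to blank, control and failed spots, and spots marked to be ignored left out. The 2 spots of a probe were averaged. A probe was tested if a channel exceeded its background by 2 background SDs on at least 2 arrays. limma fitted the mean log2 ratio against 0 (two-sided, Benjamini-Hochberg over 11733 probes, threshold 0.05). Of these probes 17 passed, 8 higher and 9 lower in the mutant. A gene with several probes was represented by its brightest. CG numbers were named through the RefSeq gene table (Release 6 plus ISO1 MT), which named 10452 of 11744 probes and gave gene order only.

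Named genes were the members, the neighbours, kep1, the nearest genes by distance, and from each list up to 4 genes past the threshold or, failing any, the 2 of 1 sign with the largest ratios; others (such as Hexo1, beta-Man, CtsL1 and Lamp1) were added for their role or after their values were seen. Members and lists were chosen with earlier results of these data known. The number of arrays limits the precision. No label says that the RNA samples came from separate cultures of flies, so the p-values cover only the spread between them. Alternatives in background correction, normalization, filter, variance model, source of values and arrays are given at the end.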

Additional observations from a re-analysis of the deposited data

How the results depend on the processing

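LManVI stayed between -1.62 and -1.44, LManV between -1.44 and -1.05 and LManIII between -0.29 and -0.01 under the 11 alternatives run for the members (10 for LManIII, which the stricter filter left out), all below 0. LManII lay between -0.13 and 0.11 and was below 0 only without array 1. The median of the members was -0.61, and -0.81 without background correction, -0.83 with plain subtraction, -0.84 with the deposited log2 values and -1.15 with the stricter filter, which dropped the dim LManIII probe. Leaving out 1 array gave medians from -0.68 to -0.55. LManIII is limited by lying mostly within the range of blank spots. The mutant signal of LManV was under the 95th percentile of blank spots on array 3 only.

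The number of probes past the limma threshold moved far more. It was 17 (8 higher, 9 lower), and 434 without background correction (116 higher, 318 lower), 390 with plain subtraction (102 and 288), 423 with the deposited values (121 and 302), 70 with median centring (25 and 45), 113 with the stricter filter (42 and 71) and 292 with an intensity trend and robust variances (73 and 219). It was 0 with scale normalization between arrays in limma (1829 at an unadjusted p under 0.05), and 0 to 100 when 1 array was left out, with 0 without array 1 (1332 unadjusted), 100 without array 2 and 0 without array 3 (1194 unadjusted). The cause was not tested. Among the other lysosomal glycosidases 2 passed without background correction, 1 with plain subtraction and 1 with trend and robust variances. Of the neighbours 1, CatB, passed in these 3 settings and with the deposited values, and 0 to 1 passed when 1 array was left out, CatB passing without array 2. The other 3 list counts were 0 throughout. Each log2 ratio already pairs the mutant and wild-type RNA of 1 array, so the fit is paired within arrays and no further block was fitted.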
